A study of Mus musculus with 157 samples.

Results

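The Hox genes are the 39 genes of the mouse HoxA, HoxB, HoxC and HoxD clusters, chosen as every row of the input tables whose symbol is Hox, a cluster letter from a to d and a number. They were 39 of the 36102 gene rows, 11 from HoxA, 10 from HoxB, 9 from HoxC and 9 from HoxD. The number in a symbol is the paralogue group, so Hoxa9, Hoxb9, Hoxc9 and Hoxd9 descend from the same ancestral gene. Hox proteins are homeodomain transcription factors that bind DNA together with cofactors of the Pbx, Meis and Pknox families. Low numbers lie at the end of a cluster read in the head region of the embryo and high numbers at the end read in the tail region. In blood, Hoxa9 is best known for stem and progenitor cell growth and for its high level in acute leukaemias, Hoxb4 for expanding stem cells when forced on, and Hoxb5 as a reporter gene for long-term stem cells.

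The study measured RNA in mouse haematopoietic cells. For each of 16 wild-type, untreated cell types the atlas held 2 input libraries, made before precipitation, and 2 IP libraries, made after pulling down RNA that carries N6-methyladenosine (m6A). The 9 stem and progenitor types were LT.HSC and ST.HSC (long-term and short-term haematopoietic stem cells), MPP and LMPP (multipotent and lymphoid-primed multipotent progenitors), CLP, CMP and GMP (common lymphoid, common myeloid and granulocyte-monocyte progenitors), MEP (megakaryocyte-erythroid progenitors) and MkP (megakaryocyte progenitors). The 7 mature types were Neutrophil, Monocyte, DC, Erythroid, B_cell, CD4 and CD8. The Mettl3 set held inputs and IPs of untreated Mettl3 -/- and wild-type cells from 7 types, namely the immature types above other than LMPP and CLP, with 2 libraries of each kind. Mettl3 is the catalytic subunit of the enzyme that writes m6A. The Igf2bp2 set held 2 libraries of Igf2bp2 -/- and 2 of wild-type LT.HSC, untreated. Igf2bp2 is an RNA-binding protein known as a reader of m6A. SLAM-seq, in which newly made RNA takes up 4-thiouridine and is read with T-to-C changes, was run on wild-type cells of 6 types labelled for 3 h. It was also run as a chase of 0.5 to 24 h in LT.HSC and MkP, after 24 h of labelling. The sources used here give no strain, no age and no account of how the knockout alleles were made. Nor do the labels say that libraries of a group came from separate animals, so each p-value reflects only how these libraries spread.

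The atlas inputs held 8.23 M to 21.5 M reads each (median 14.5 M), the Mettl3 inputs 3.42 M to 20.2 M and the Igf2bp2 libraries 4.68 M to 20.0 M. The summed level of 4 LT.HSC marker genes (Procr, Mecom, Hlf, Fgd5) was 3787 and 4058 normalised counts in the atlas LT.HSC libraries, 13.1 to 3658 in the other stem and progenitor libraries and 10.4 to 196 in the mature ones. The level of Mettl3 RNA did not separate the genotypes, with 274 to 931 in the 14 libraries labelled knockout and 127 to 5370 in the 14 labelled wild type. Igf2bp2 was at 13.03 and 12.5 CPM (counts scaled to equal library totals) in the libraries labelled knockout and at 7.11 and 53.5 in those labelled wild type. Gene-level totals of this kind do not check a deletion of part of a gene, so groups are given as the labels name them. The Monocyte libraries were shallow in effect, 1 read being worth 7.97 and 11.6 normalised counts there. Their neutrophil marker sum was 16318000 and 21522000, against 1492100 and 1637000 in the Neutrophil libraries. Their monocyte marker sum was 212670 and 255030, against 51803 and 54224 in Neutrophil. Monocyte is thus used here as a label. The first wild-type LT.HSC input of the Mettl3 set stood apart from the rest, and its values are given with the Mettl3 results.

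On the GRCm38.p6 assembly of RefSeq, HoxA spans chromosome 6 from 52155367 to 52260880, HoxB chromosome 11 from 96194316 to 96368254, HoxC chromosome 15 from 102921131 to 103036856 and HoxD chromosome 2 from 74668225 to 74765142. The promoter windows of 4 HoxA members are shown. Hoxa7, Hoxa9 and Hoxa10 were chosen because each was lower in MEP than in CMP and MkP, and Hoxa2 because its levels were highest in the stem cells. Each window holds the 250 bases before an annotated start on the minus strand, written 5′ to 3′ on that strand. Capitals mark matches on either strand to the motifs TATAAA (the TATA box), CCAAT (the CCAAT box), TGACAG (the core bound by Meis and Pknox) and TGATTNAT (the core bound by Pbx with Hox).
Hoxa2, chr6:52164832-52165081: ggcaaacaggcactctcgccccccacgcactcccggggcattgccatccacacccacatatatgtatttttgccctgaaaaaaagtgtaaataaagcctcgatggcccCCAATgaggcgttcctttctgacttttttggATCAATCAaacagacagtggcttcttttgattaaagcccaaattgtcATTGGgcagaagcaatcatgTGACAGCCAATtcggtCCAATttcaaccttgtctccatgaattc
Hoxa7, chr6:52218574-52218823: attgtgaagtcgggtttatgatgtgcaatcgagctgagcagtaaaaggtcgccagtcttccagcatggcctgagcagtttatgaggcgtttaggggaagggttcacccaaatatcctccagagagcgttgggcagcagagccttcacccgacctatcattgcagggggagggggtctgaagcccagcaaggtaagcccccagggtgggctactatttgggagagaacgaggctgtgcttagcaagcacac
Hoxa9, chr6:52227371-52227620: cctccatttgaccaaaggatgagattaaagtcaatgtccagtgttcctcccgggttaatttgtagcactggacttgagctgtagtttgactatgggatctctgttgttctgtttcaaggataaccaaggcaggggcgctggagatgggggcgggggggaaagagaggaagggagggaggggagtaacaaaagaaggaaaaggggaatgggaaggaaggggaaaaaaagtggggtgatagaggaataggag
Hoxa10, the inner of its annotated starts, chr6:52234940-52235189: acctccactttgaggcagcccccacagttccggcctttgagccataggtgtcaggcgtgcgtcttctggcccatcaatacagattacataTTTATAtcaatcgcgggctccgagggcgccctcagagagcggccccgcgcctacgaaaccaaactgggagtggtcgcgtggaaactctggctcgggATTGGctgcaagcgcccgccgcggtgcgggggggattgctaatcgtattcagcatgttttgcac
The Hoxa2 window held 6 matches, among them 4 of CCAAT, 1 of TGACAG that ends where a CCAAT begins, and 1 of TGATTNAT. In the inner Hoxa10 window there were 2 matches, a TATAAA and a CCAAT, both on the opposite strand. The Hoxa7 and Hoxa9 windows held none of the 4 motifs. Windows were at hand for 22 of the Hox genes, 24 windows in all, and not for Hoxb2, Hoxb3, Hoxb5 or Hoxb6. CCAAT was found in 14 of those 24 and in 33.9% of all 32851 promoter windows of this length. TATAAA was in 4 Hox windows (12.4% of all windows), TGACAG in 2 (15.9%) and TGATTNAT in 2 (2.82%). A match is a description of the letters and not a binding site.

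In the 32 atlas inputs, 14 of the 39 Hox genes reached a mean of 10 normalised counts in some type, 22 others had reads and 3 had none. Of the 14, 8 were highest in LT.HSC, 3 in ST.HSC and 3 in a mature type. These 14 were Hoxa2, Hoxa3, Hoxa5, Hoxa7, Hoxa9, Hoxa10, Hoxb1, Hoxb2, Hoxb3, Hoxb4, Hoxb5, Hoxb6, Hoxc4 and Hoxc9, and no HoxD gene was among them. The other 25 genes had at most 75 reads each over all libraries. They included Hoxa4, Hoxa6, Hoxa11 and Hoxa13 of HoxA, Hoxb7, Hoxb8, Hoxb9 and Hoxb13 of HoxB, Hoxc5, Hoxc6, Hoxc8, Hoxc10, Hoxc11, Hoxc12 and Hoxc13 of HoxC, and all 9 HoxD genes. Hoxc11, Hoxc12 and Hoxd1 had none, which allows up to 3 reads per library, or 1.24 to 7.90 normalised counts outside Monocyte and up to 34.7 within it. That limit, like the intervals below, covers counting error only.

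HoxA supplied 83.0% of all 36818 Hox reads of the atlas inputs. HoxB supplied 14.3%, HoxC 2.50% and HoxD 0.198%. By paralogue number, group 7 took 36.8% of the reads and group 9 took 32.6%. Groups 10, 5 and 2 followed with 8.52%, 7.62% and 6.52%, and groups 4, 3 and 6 with 3.29%, 2.82% and 1.38%. Groups 1, 8, 11, 12 and 13 each held under 1% of the reads. Hoxa7 and Hoxa9 alone had 13494 and 11647 reads. These shares are of reads, which grow with transcript length, and no transcript lengths were used. Some Hox genes overlap in the annotation (Hoxa3 with Hoxa4, Hoxa5 and Hoxa6, Hoxb3 with Hoxb4, Hoxd3 with Hoxd4, Hoxd10 with Hoxd11), and the tables hold no antisense Hox transcripts. The sources used here do not say whether the counting used strand, so reads of overlapping or antisense genes cannot be told apart from those of the named gene.

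**Figure D1:**
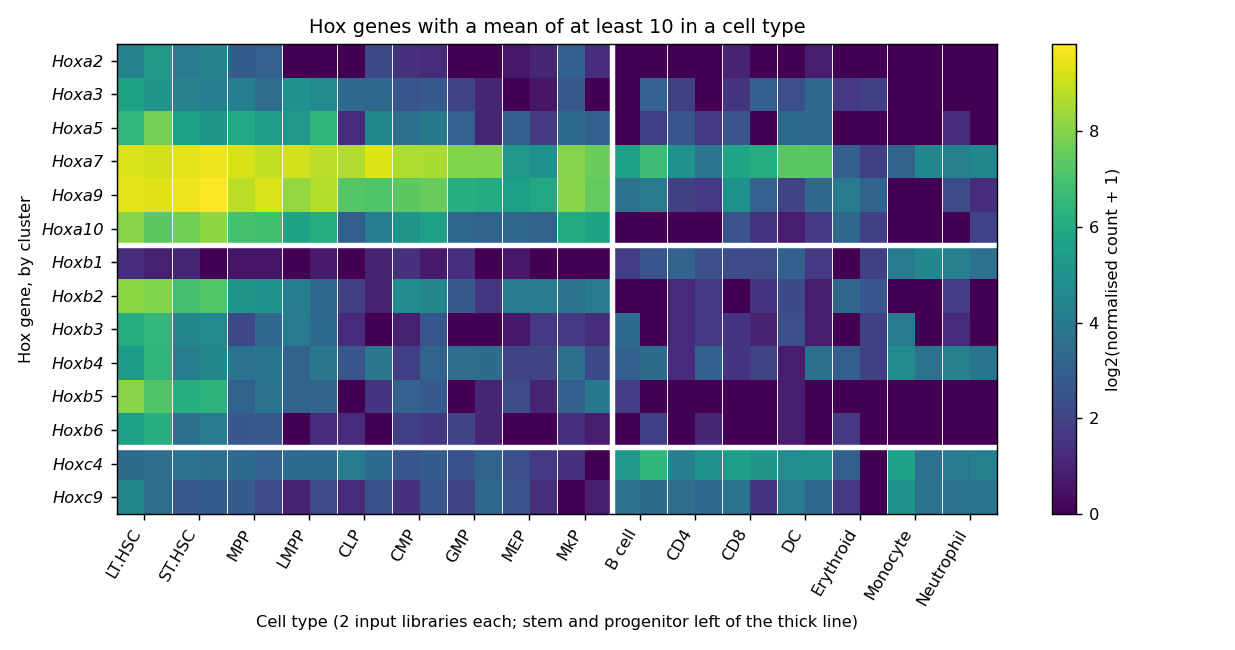
log2(normalised count + 1) of the 14 named Hox genes (rows, by cluster and number) in the 32 atlas input libraries (columns, 2 per cell type), with brighter cells for higher values. Hoxa7, Hoxa9 and Hoxa10 are bright over most stem and progenitor columns, Hoxb2 to Hoxb6 are brightest in LT.HSC, and Hoxc4 is brighter in most mature columns.

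Stem and progenitor cells differed from mature cells in all 14 named Hox genes. The 6 named HoxA genes and Hoxb2 to Hoxb6 were higher in the immature types, by 0.68 (Hoxb4) to 5.36 (Hoxa9) on the log2(normalised count + 1) scale, which understates the change of low genes. Hoxb1, Hoxc4 and Hoxc9 were higher in the mature types. By limma with Benjamini-Hochberg adjustment, 11 of 14 were higher in the stem and progenitor types, against 29.6% of the 17165 genes tested, and 3 were lower, against 39.4%. The median difference over the 14 was 1.77 and over all genes -0.16. Hoxa2, Hoxa3, Hoxa5, Hoxa10, Hoxb2, Hoxb5 and Hoxb6 passed the filter on low values only through immature libraries. Hoxb1 passed it only through mature ones. The counts and the median are thus partly set by that filter and give no support for a direction of the genes as a set. The F test over all 16 types called 14 of 14, where 92.6% of all genes were called. In sorted bulk populations, fewer cells that read a gene and less RNA per cell cannot be told apart. The smallest of these differences, Hoxb4 at 0.68 ± 0.30 (SE, adjusted p = 0.0482), kept its call in only 14 of 39 alternative settings, with an adjusted p of 0.00781 to 0.135. With edgeR on recovered whole reads the calls of Hoxa2, Hoxb3, Hoxb4 and Hoxb6 were lost and 7 were left.

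Hoxa9, the leukaemia-associated member of group 9, showed the widest contrast. Its normalised counts were 681 and 671 in LT.HSC, 766 and 909 in ST.HSC, 445 and 610.3 in MPP, 297 and 426 in LMPP, and 267 and 177 in MkP. They were 149.6 and 139 in CLP, 162 and 186 in CMP, 71.0 and 65.1 in GMP, and 46.2 and 59.9 in MEP. All 18 immature libraries lay above the 14 mature libraries, which ran from 0 to 29.3. The difference was 5.36 ± 0.19 on the log2 scale (SE, limma adjusted p = 2.06e-16). ST.HSC was highest in both libraries, and LT.HSC and MPP did not overlap with LMPP or any later type.

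Hoxa7, its neighbour in the cluster, stayed high further into the lineages. Its counts were 636 and 592 in LT.HSC, 685 and 759 in ST.HSC, 606 and 491 in MPP, 564 and 463 in LMPP, and 408 and 655 in CLP. Further on they were 397 and 385 in CMP, 246 and 250.3 in GMP, 37.2 and 29.4 in MEP, and 256 and 189 in MkP. ST.HSC lay above all other types, LT.HSC, MPP, LMPP and CLP each overlapped with another of these 4, CMP and GMP lay lower, and MEP lay far below every other immature type. Among mature cells, DC was highest at 156 in both libraries and Erythroid lowest at 6.65 and 2.63, so that DC lay above MEP. The immature types were higher by 3.43 ± 0.16 (SE).

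Hoxa10, the third of these genes, fell off earlier. Its counts were 273 and 164 in LT.HSC, 214 and 296 in ST.HSC, 124 and 114 in MPP, and 50.8 and 66.3 in LMPP. CMP had 33.3 and 46.4, MkP 63.3 and 51.7, CLP 6.56 and 17.04, GMP 9.06 and 8.01, and MEP 8.50 and 7.88. LT.HSC and ST.HSC overlapped and lay above all other types, while CLP, GMP and MEP overlapped with the top of the mature range of 0 to 8.86. The difference between immature and mature types was 4.55 ± 0.24 (SE).

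Hoxb2 to Hoxb6, Hoxa2, Hoxa3 and Hoxa5 had another pattern, with LT.HSC giving the highest mean of each. Against the mean of the 8 other immature types, 12 of the 14 named genes were higher in LT.HSC by limma (24.2% of all genes) and none was lower (16.2%). The median difference was 2.64 over the 14 and 0.24 over all genes. Hoxa2 and Hoxb6 passed the filter on low values only through LT.HSC and ST.HSC libraries. The count and the median are thus partly set by that filter and give no support for a direction of the genes as a set. Hoxb5 led with 4.84 ± 0.50 (SE, adjusted p = 2.35e-07), followed by Hoxb6 (4.36 ± 0.52), Hoxb3 (4.30 ± 0.82) and Hoxb2 (4.05 ± 0.53). Hoxa2, Hoxa5, Hoxb4, Hoxa3, Hoxa10, Hoxc9 and Hoxa9 rose by 3.24, 3.23, 2.66, 2.63, 2.49, 2.05 and 1.72. The smallest called difference was that of Hoxa7 (1.01 ± 0.34, adjusted p = 0.0239). Hoxc4 (0.69, adjusted p = 0.361) and Hoxb1 (0.57, adjusted p = 0.394) did not pass. In groups 2, 3 and 5 the HoxB paralogue had the larger value, with 4.05 against 3.24, 4.30 against 2.63 and 4.84 against 3.23, a difference between paralogues that was not tested. LT.HSC has only 2 libraries, and without the first the calls of Hoxa3 (adjusted p = 0.0641), Hoxc9 (0.191) and Hoxa7 (0.152) were lost. Without the second, those of Hoxa5 (adjusted p = 0.0691), Hoxb4 (0.0819) and Hoxa7 were lost.

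Hoxb5, the stem cell reporter gene, fell from 268 and 143 normalised counts in LT.HSC to 71.4 and 81.5 in ST.HSC. It then stood at 7.84 and 12.8 in MPP, 7.81 and 8.14 in LMPP, 7.48 and 5.80 in CMP, and 7.20 and 14.6 in MkP. CLP had 0 and 1.79, GMP 0 and 1.00, MEP 3.72 and 1.05, and the mature libraries 0 to 2.43. The LT.HSC, ST.HSC and MPP libraries thus formed 3 ranges with no overlap, each below the one before.

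Hoxb2, a paralogue-group-2 gene with a classical role in the hindbrain, was at 285 and 248 in LT.HSC, 122 and 146 in ST.HSC and 32.8 and 31.3 in MPP. LMPP had 17.6 and 8.76, CMP 25.8 and 22.6, MEP 15.4 and 15.8, MkP 12.4 and 16.0, GMP 6.04 and 2.00, and CLP 2.62 and 0.897. The first 3 types did not overlap with each other or with any later type, and CLP and GMP fell within the mature range of 0 to 8.86. MEP, where Hoxa7 was lowest among immature types, was not the lowest for Hoxb2.

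The less abundant HoxB members Hoxb3, Hoxb4 and Hoxb6 also had their highest mean in LT.HSC. Hoxb3 had 66.4 and 89.9 in LT.HSC against 21.7 and 25.3 in ST.HSC. Hoxb4, the stem cell expansion gene, had 39.7 and 85.0 against 17.1 and 22.6. Hoxb6 had 45.7 and 70.9 against 10.9 and 15.2. By limma none of these 3 genes passed between LT.HSC and ST.HSC (adjusted p = 0.397 for Hoxb3, 0.311 for Hoxb4 and 0.0924 for Hoxb6). Among low-numbered HoxA genes, Hoxa5 had 89.9 and 217 against 47.1 and 35.4. Hoxa3 had 49.8 and 34.2 against 18.6 and 17.5, and overlaps Hoxa5 in the annotation. Hoxa2, whose window is printed above, had 18.9 and 38.8 against 15.5 and 19.3, so its LT.HSC and ST.HSC ranges overlapped.

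**Figure D2:**
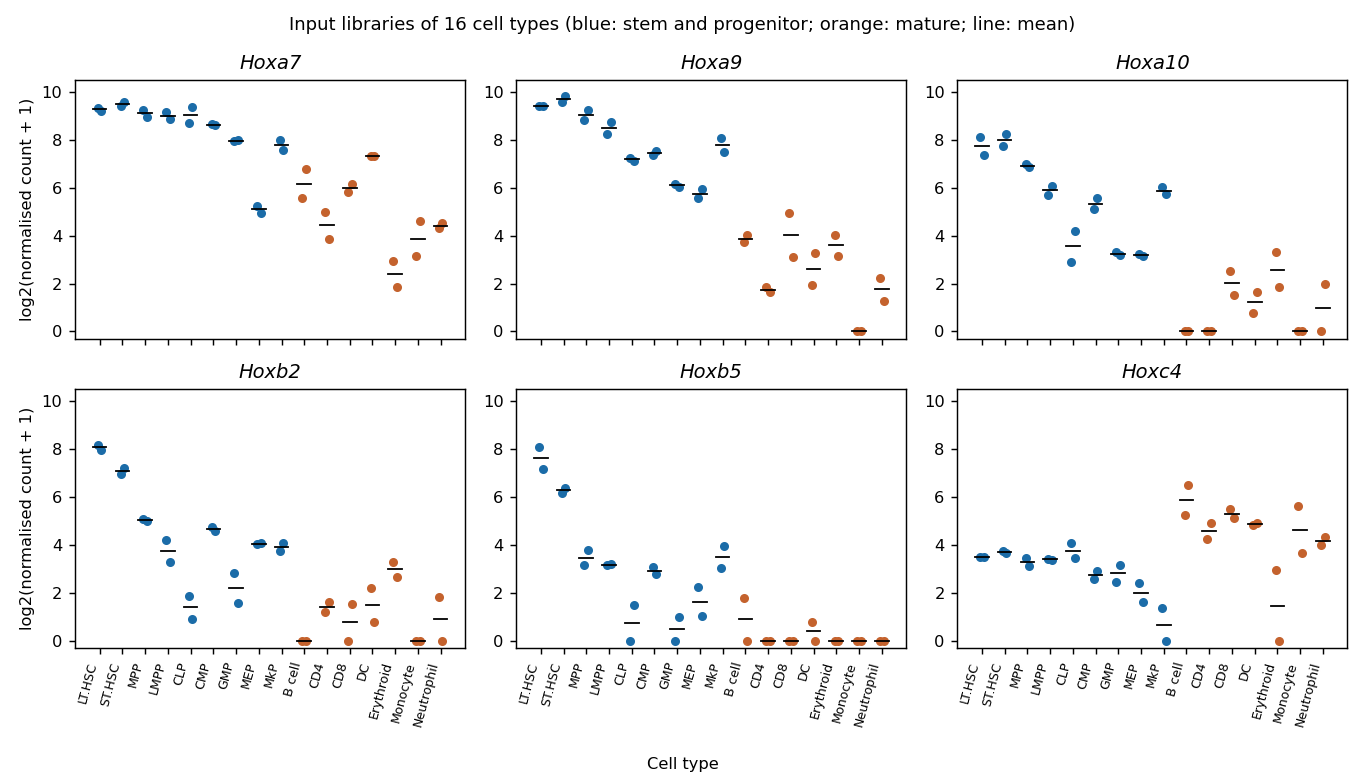
The log2(normalised count + 1) of single atlas input libraries for Hoxa7, Hoxa9, Hoxa10, Hoxb2, Hoxb5 and Hoxc4 in 16 cell types, each point 1 library and each line the mean of the 2 plotted values. Hoxa7 and Hoxa9 stay high up to CMP and dip in MEP, Hoxb2 and Hoxb5 drop from LT.HSC onward, and Hoxc4 is highest in the mature types.

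The balance between clusters changed along the lineages with the levels. HoxB made up 28.2% of all Hox reads in the first LT.HSC library (exact 95% interval 27.0 to 29.4%) and 26.9% in the second (25.8 to 28.1%). It made up 12.4% and 12.6% in ST.HSC, 4.77% and 5.32% in MPP, 4.82% and 3.94% in LMPP, and 1.95% and 2.03% in CLP. The share was higher again in MEP, at 17.3% (12.9 to 22.5%) and 18.1% (13.6 to 23.4%) of only 254 Hox reads in each library. CMP (6.43% and 6.44%), GMP (5.65% and 3.93%) and MkP (5.28% and 7.96%) lay between MPP and ST.HSC or near MPP. The summed Hox level fell at the same time, from 2534 and 2405 normalised counts in LT.HSC and 2022 and 2357 in ST.HSC to 135 and 133 in MEP. In mature libraries the sum was 31.6 to 256.

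**Figure D3:**
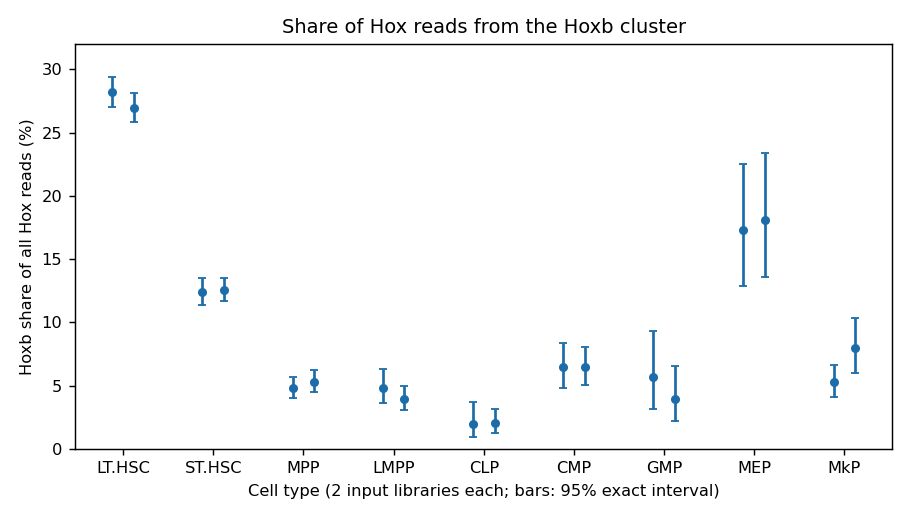
Share of all Hox reads that came from HoxB, in percent, for each library of the 9 immature atlas types, with exact binomial 95% intervals as bars. The 2 LT.HSC libraries lie at 28.2% and 26.9%, ST.HSC near 12.5%, CLP near 2%, and MEP, on few reads, at 17.3% and 18.1%.

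Along 9 steps between neighbouring types, limma called 12 decreases and 4 increases among the 14 named genes. From LT.HSC to ST.HSC none of the 14 passed (3.97% of all genes), with 1 at an unadjusted p under 0.05. From ST.HSC to MPP, Hoxb5 fell (-2.81 ± 0.67, adjusted p = 0.0130, where 1.07% of all genes fell). From MPP to LMPP, Hoxa2 fell (-2.99, adjusted p = 0.00637, background 4.49%). From LMPP to CLP, Hoxa10 (-2.34), Hoxb2 (-2.36) and Hoxb5 (-2.42) fell (adjusted p = 0.0365, 0.0427 and 0.0295, background 3.33%). None passed from MPP to CMP (3.16%), with 3 at an unadjusted p under 0.05. From CMP to GMP, Hoxb2 (-2.45) and Hoxb5 (-2.42) fell (adjusted p = 0.0426 and 0.0364, background 3.37%).

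On the branch to MEP, Hoxa7, Hoxa9 and Hoxa10 all passed, though only Hoxa7 fell much more there than toward GMP. From CMP to GMP, Hoxa9 (-1.34) and Hoxa10 (-2.08) fell without passing (limma adjusted p = 0.191 and 0.0813). Hoxa7 changed by -0.65 in that step. From CMP to MEP, Hoxa7 (-3.52 ± 0.46, adjusted p = 3.22e-06), Hoxa9 (-1.70) and Hoxa10 (-2.13) fell (adjusted p = 0.0282 and 0.0289 for the latter), where 11.7% of all genes fell. MkP was above MEP in Hoxa7 by 2.70, Hoxa9 by 2.03, Hoxa10 by 2.66 and Hoxb5 by 1.86 (adjusted p = 7.20e-05, 0.00551, 0.00388 and 0.0406), where 14.1% of genes rose. Erythroid cells were below MEP in Hoxa7 (-2.69, adjusted p = 7.39e-05) and Hoxa9 (-2.14, adjusted p = 0.00323), where 13.1% fell. MkP was thus above MEP in 4 of the 14 genes, the other 10 not passing in either direction, and erythroid cells had the lowest mean Hoxa7 of all types, on 3 and 1 reads. Marker sums differed between MkP and MEP too. The megakaryocyte sum was 23731 and 83304 in MkP against 459 and 560 in MEP. That of granulocyte-monocyte progenitors was 730650 and 682110 in MkP against 583 and 381 in MEP. The part of these markers in the Hox differences was not tested. The count of decreases rests on the CMP libraries, since without either of them it was 7.

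HoxC behaved differently in its 2 readable members. Hoxc4, the most 3′ gene of its cluster, had 36.5 and 88.7 normalised counts in B_cell, 18.1 and 29.5 in CD4, 43.5 and 33.7 in CD8, 27.3 and 29.3 in DC and 15.0 and 18.8 in Neutrophil. It had 47.8 and 11.6 in Monocyte, 6.65 and 0 in Erythroid, and 0 to 15.7 in the 18 immature libraries. The lymphoid and DC libraries all lay above the immature range, while Monocyte, Neutrophil and Erythroid reached into it. Immature types were lower in Hoxc4 by -1.54, in Hoxb1 by -2.13 and in Hoxc9 by -0.96. LT.HSC was an exception for Hoxc9, at 22.6 and 10.3, against 0 to 9.01 in the other immature libraries and 0 to 31.9 in the mature ones. The highest means of Hoxb1 and Hoxc9 were in Monocyte, where they rest on 2 and 2 reads and on 4 and 1 reads. All 3 calls held without both Monocyte libraries. No HoxD gene had a mean of 10 in any type, and the whole cluster gave 73 reads. Hoxd9, its highest member by the mean over the 9 immature types, ran from 0 to 2.31 there and had 19 reads over all 32 libraries.

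The cofactors of Hox proteins were split. Of 9 listed Pbx, Meis and Pknox genes, 8 were tested. In immature against mature types 3 of 8 were higher and 2 lower, with a median of 0.03, beside 29.6% and 39.4% of all genes. Among these, Meis1, which binds DNA with Hoxa9, rose by 4.06 and Pbx4 by 3.07, while Meis3 (-1.31) and Pknox1 (-0.61) were lower. In LT.HSC against the other immature types 6 of 8 were higher and 0 lower, with a median of 2.03, beside 24.2% and 16.2% of all genes. Among them Meis3 rose by 3.25, Meis1 by 2.77, Meis2 by 2.22, Pbx3 by 1.85 and Pbx2 by 1.22. Of 24 listed upstream regulators, such as the Trithorax, Polycomb and Cdx genes, 21 were tested. They had 7 higher and 9 lower in immature types (median -0.13) and 6 higher and 2 lower in LT.HSC (median 0.26), shares close to those of all genes for the higher ones. Of 11 listed genes that flank the clusters, 7 were tested, with 3 higher and 2 lower in immature types (median 0.21) and 0 higher and 2 lower in LT.HSC (median -0.40).

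The m6A enrichment of a transcript was taken as log2 IP minus log2 input, with each table scaled within itself, so that only its place among genes and its differences between types can be read. Over the 9 immature types the median of the 14 Hox genes was 0.81 and that of the 16753 genes tested was 0.50. Of the 14, 8 were above the median of all genes. Hoxa5 (2.11) and Hoxb3 (2.03) lay highest, at percentiles 94.1 and 93.0 of all genes. Hoxa10 (-0.75), Hoxb2 (-0.43) and Hoxa2 (-0.24) lay lowest, at percentiles 14.3, 21.3 and 26.3. These means include types with little or no input. The input mean of Hoxb3 reached 10 in only 3 types, where its enrichment was 0.54 to 2.18 (percentiles 59.1 to 89.5 within a type). That of Hoxa2 reached 10 in only 2 types, with -3.17 to -1.89 (percentiles 5.09 to 8.79). Hoxa9 stood at 0.69 and Hoxa7 at 0.09, percentiles 55.8 and 36.7.

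Hoxa5 was above the 0.50 median of all genes in each of the 6 types where its input mean reached 10. Its enrichment was 1.63 ± 0.74 in LT.HSC, 3.02 ± 0.23 in ST.HSC, 1.55 ± 0.22 in MPP, 1.90 ± 0.71 in LMPP, 3.98 ± 1.76 in CLP and 1.72 ± 0.30 in CMP (unpaired SE, 2 IP and 2 input libraries). It rests on 434 and 942 IP reads in LT.HSC and 596 and 472 in ST.HSC. Hoxa9 was near 0 in LT.HSC (-0.06 ± 0.26) and MkP (-0.02 ± 0.29) and highest in LMPP (2.02 ± 0.33) and GMP (1.56 ± 0.14). Hoxa10 was below that median in each of the 7 types with enough input, from -2.22 in CLP, on 5 and 0 IP reads, to just under 0 in ST.HSC. In LMPP its IP libraries had 111 reads and 1 read, so that value rests on libraries that disagree. Of the HoxA genes with the most reads, Hoxa5 was thus highest and Hoxa10 lowest.

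None of these differences between types passed. The F test over the 9 types called 0 of 14 Hox genes by limma, against 8.17% of all genes, with 2 at an unadjusted p under 0.05, Hoxb5 (0.0217) and Hoxa2 (0.0446). In LT.HSC against the other immature types it called 0 of 14, where 8.34% of all genes were lower and 1.27% higher, with 1 at an unadjusted p under 0.05. The median difference was -0.62 over the 14 and -0.29 over all genes. Hoxa2 had the largest difference (-3.29 ± 1.26, adjusted p = 0.0922), with 0 and 15 IP reads in LT.HSC. It passed in 4 alternatives, among them the one without the second LT.HSC IP.

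**Figure D4:**
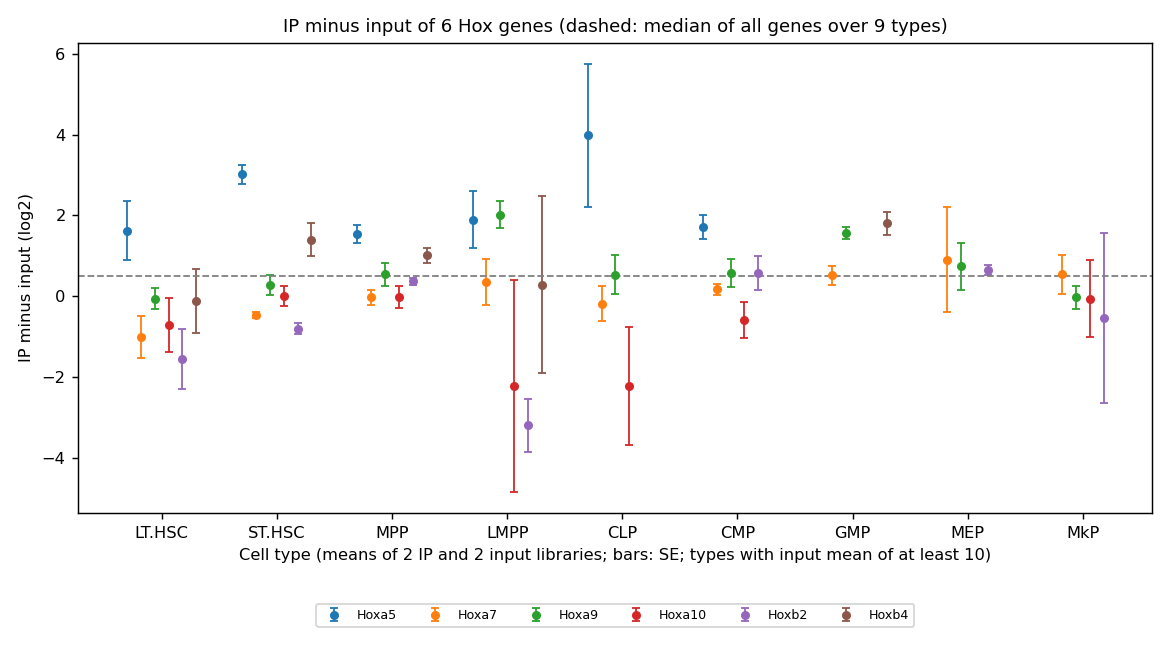
log2 IP minus log2 input of Hoxa5, Hoxa7, Hoxa9, Hoxa10, Hoxb2 and Hoxb4 in the immature atlas types where the input mean is at least 10, each point the mean of 2 IP minus that of 2 input libraries, bars the SE, and the dashed line the median of all genes (0.50). Hoxa5 lies above the line in every type shown, Hoxa10 below it in every type, and Hoxa9 spreads from near 0 to 2.02.

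In the Mettl3 inputs, 3 HoxB genes were higher in the libraries labelled knockout. Averaged over 7 types, Hoxb5 was higher by 2.65 ± 0.42 (SE, limma adjusted p = 0.000328), Hoxb7 by 2.50 ± 0.61 (adjusted p = 0.0115) and Hoxb9 by 1.44 ± 0.45 (adjusted p = 0.0433). This fit took the libraries of a genotype as independent, and the labels do not say whether types share animals. None of the 3 genes passed with 1 mean per genotype and replicate number. Hoxb7 and Hoxb9 passed the filter on low values mainly through knockout libraries. Of the 14 Hox genes that passed it, 3 were called higher, against 7.24% of all 15030 genes, and 0 of 14 were lower, against 2.89%. The median was 0.24 over the 14 and -0.06 over all genes. This count and this median are thus partly set by the filter and give no support for a direction of the genes as a set. All HoxA genes tested missed the threshold in the average, including Hoxa9 (-0.41, adjusted p = 0.206). Hoxb4 had a value of -0.91 (adjusted p = 0.132).

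Hoxb5 was at 289 and 337 normalised counts in knockout LT.HSC against 147 and 67.4 in wild type, and at 332 and 187 against 87.8 and 89.4 in ST.HSC. In MPP it was at 116 and 118 against 1.90 and 29.3, in CMP at 20.1 and 38.5 against 2.03 and 11.2, and in GMP at 5.91 and 47.9 against 0 and 2.03. In MEP it was at 22.2 and 59.9 against 0 and 1.05, and in MkP at 93.7 and 71.8 against 52.5 and 17.8. Both knockout libraries lay above both wild-type libraries in 7 of 7 types, as for 0.333% of all genes. The drop of Hoxb5 from stem cells to later progenitors was present in both genotypes. Behind these values stood 5 to 505 reads (median 73.5) in the knockout and 0 to 252 (median 17) in the wild type. Hoxb5 passed in 34 of 35 alternatives, with an adjusted p of 0.155 in the one that reduced each genotype to 1 mean per replicate number.

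Hoxb7 had reads in 11 of 14 knockout libraries and in 2 of 14 wild-type libraries. In the knockout it was at 44.3 and 90.1 in LT.HSC, 33.5 and 23.0 in MPP, 13.8 and 24.8 in MkP, 0 and 17.1 in CMP, 4.73 and 4.67 in GMP, 0 and 4.04 in ST.HSC and 2.46 and 0 in MEP. Its wild-type values were 0 except for 193 in the first LT.HSC library and 1.05 in the second MEP library. Hoxb7 passed in 33 of 35 alternatives and had an adjusted p of up to 0.232 in the others. Hoxb9 was at 24.8 and 48.7 in knockout LT.HSC, 52.1 and 9.43 in ST.HSC, 5.30 and 5.05 in MPP and 2.96 and 6.20 in MkP. In the wild type it was at 49.6 in the first LT.HSC library and 0 to 1.39 in all others. It passed in only 6 of 34 alternatives. In the wild-type atlas neither gene reached a mean of 10 in any type.

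Within single types only Hoxb5 in MEP passed (4.71 ± 1.11, adjusted p = 0.0212, where 2.14% of all genes were called higher), and it was lost without any 1 of the 4 MEP libraries. In the other 6 types 0 of 14 passed, where 0.539% of all genes were called in LT.HSC, 0.0133% in ST.HSC and MPP, 0.00665% in CMP, 0% in GMP and 0.113% in MkP. At an unadjusted p under 0.05 there were 3, 2, 4, 0, 1 and 2 members in these types. The F test for a difference of the effect between types passed for 0 of the 14 (0.0133% of all genes), with Hoxa9 at an unadjusted p of 0.0422. Hoxa9 was at 516 and 278 in knockout LT.HSC against 1218 and 781 in wild type, and at 429 and 354 against 895 and 886 in MPP. In MEP it was at 165 and 98.3 against 97.0 and 56.9, and in MkP at 295 and 284 against 186 and 173. The knockout thus lay lower without overlap in LT.HSC and MPP and higher without overlap in MEP and MkP. Such separations were common among all genes with a value of 10 in a library of the type. The knockout lay lower without overlap for 22.0% of them in LT.HSC and 27.1% in MPP. It lay higher without overlap for 20.5% in MEP and 21.5% in MkP. Hoxa10 was at 86.2 and 89.8 against 27.7 and 15.8 in MEP, and at 162 and 158 against 99.9 and 91.3 in MkP, higher in the knockout in both.

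Marker genes moved between the genotypes too. In MEP, the megakaryocyte marker sum was at 3590 and 2967 in the knockout against 681 and 400.4 in the wild type. In MkP it was at 11773 and 7608 against 46490 and 32626, so the list was higher in knockout MEP and lower in knockout MkP, where Hoxa9 and Hoxa10 were higher in both. The LT.HSC marker sum was higher without overlap in the knockout in GMP and MEP, lower in MkP and overlapping in the other 4 types, with 72.7 to 2303 in knockout and 21.1 to 2924 in wild-type libraries. The mast cell list was higher in the knockout in 5 of 7 types, and the lymphoid progenitor list higher in the wild type in 5 of 7. The part of these lists in the Hox differences was not tested.

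**Figure D5:**
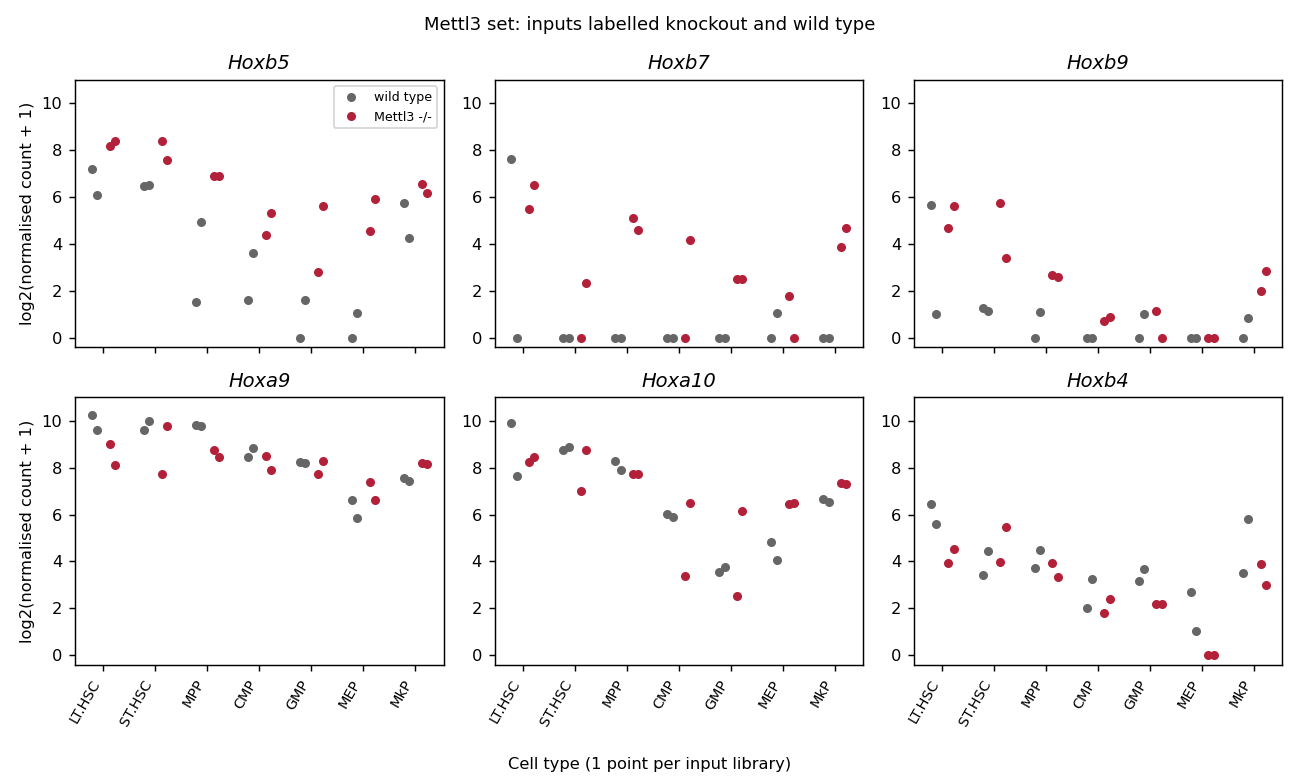
The log2(normalised count + 1) of single Mettl3 input libraries for Hoxb5, Hoxb7, Hoxb9, Hoxa9, Hoxa10 and Hoxb4 in 7 cell types, knockout and wild type side by side, each point 1 library. The knockout points of Hoxb5 lie above the wild-type points in every type, Hoxb7 is at 0 in most wild-type libraries, and Hoxa9 changes side between LT.HSC or MPP and MEP or MkP.

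The first wild-type LT.HSC input differed from all other libraries in its Hox content. Its Hox sum was 7040 normalised counts, of which HoxA made 44.3%, HoxB 20.5% and HoxC 29.0%. Hoxc9 was at 1043 there and at 3.3 to 8.1 in the other 3 LT.HSC libraries. Hoxc10 was at 773, Hoxd11 at 356, Hoxc11 at 127, Hoxb13 at 84.5 and Hoxd10 at 68.0, all posterior genes with few or no reads elsewhere. The same library had 931 for Acta1, the skeletal muscle actin (median of the other libraries 1.45), 5370 for Mettl3, 49.6 for Col1a1 and 45.9 for Pdgfra. Without it the average differences were 2.73 for Hoxb5, 3.04 for Hoxb7 and 1.77 for Hoxb9. This library held by far the highest wild-type values of Hoxb7 and Hoxb9. Leaving it out therefore had to widen the differences of these genes, so that fit is no check of them.

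No Hox gene passed for enrichment in the Mettl3 set. The change of IP minus input from wild type to knockout, averaged over 7 types, passed for 0 of 14 members and for 0% of all 14575 genes by limma. At an unadjusted p under 0.05 there were 0 members and 654 genes. The median was 0.17 over the 14 and 0.03 over all genes. A change shared by all genes is removed by the scaling, so this does not measure total m6A. The IP libraries of this set were uneven, with 0.819 M to 22.9 M counts. Between the 2 wild-type IPs, r across genes was 0.62 in ST.HSC and 0.64 in LT.HSC. Hoxa9 had 4 and 937 counts in the wild-type LT.HSC IPs and 3 and 1209 in those of ST.HSC. A lack of calls here does not show that enrichment was unchanged.

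In Igf2bp2 -/- LT.HSC no Hox gene passed. Hoxa9 was at 15.0 and 79.0 CPM in the knockout against 101 and 132 in wild type. Hoxa7 was at 32.7 and 19.9 against 56.04 and 69.3, and Hoxa10 at 25.8 and 20.0 against 47.6 and 73.4. Such values of 2 against 2 libraries are not a test. The edgeR adjusted p was 0.895 for Hoxa9, 0.937 for Hoxa7 and 0.895 for Hoxa10. Hoxb5 was at 4.91 and 0.154 CPM against 25.9 and 16.7, and Hoxb3 at 1.92 and 0.462 against 9.91 and 4.07. Hoxa3 had 0 and 1 reads in the knockout against 87 and 27, and Hoxb6 had 0 and 0 against 41 and 13. Hoxb2 (37.6 and 23.1 against 25.5 and 31.1 CPM) and Hoxb4 (37.0 and 29.3 against 38.9 and 36.2 CPM) overlapped between the genotypes. So did Hoxa5, at 17.9 and 7.55 CPM in the knockout against 8.81 and 16.5 in wild type.

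By edgeR's quasi-likelihood test 0 of the 10 Hox genes tested passed after adjustment, as did 0% of all 12221 genes. Before adjustment, edgeR's p was under 0.05 for 2, Hoxb6 (0.00944) and Hoxa3 (0.0125), and DESeq2 called 0. The median log2 fold change was -1.04 over the 10 and 0.00 over all genes, but Hoxa3 and Hoxb6, among others, passed the filter on low counts only through the wild-type libraries, so the median gives no support for a direction. The LT.HSC marker sum was also lower in the knockout, at 255 and 263 CPM against 411 and 393. The neutrophil marker sum was higher, at 2583 and 986 against 436 and 174, as was that of granulocyte-monocyte progenitors, at 3249 and 334 against 130.2 and 94.3. The part of these markers in the Hox values was not tested.

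New RNA, as the percentage T-to-C ratio after 3 h of labelling, was listed for 20 Hox genes, and 5 of them had enough values above 0 to be tested among 6 types. Hoxa10 was at 1.19 and 1.51% in LT.HSC, 1.08 and 1.10% in ST.HSC, 2.07 and 2.06% in MPP and 3.16 and 1.73% in MEP. It was at 0.118 and 0.362% in CMP and at 0 in both GMP libraries. Hoxb3 was at 3.13 and 6.02% in CMP and at 0 and 0.0131% in GMP. Hoxb5 was above 0 only in LT.HSC (1.97 and 3.54%) and ST.HSC (0.766 and 1.39%), the types with its highest input. By limma 0 of 5 passed, as did 0% of all 13909 genes, with 3 at an unadjusted p under 0.05. These were Hoxa10 (adjusted p = 0.149), Hoxb3 (adjusted p = 0.152) and Hoxa9. The chase tables, given as averages without replicates, listed 9 Hox genes in LT.HSC and 2 in MkP, with too few values above 0 to describe a course.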

How the data were processed

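Inputs of 16 wild-type types (32 libraries) and of the Mettl3 set (28), m6A IPs of both, 4 Igf2bp2 libraries and SLAM-seq tables were used. The members and lists were chosen with earlier results of these data known. Input values are, per the file headers and values, a signal the authors made by dividing read counts per gene by a size factor per library, called normalised counts here; whole reads were recovered from the step of each library (100% of values within 0.1 of a whole read in every library). Atlas IPs and the Igf2bp2 table are counts as the authors deposited them, and the Mettl3 IPs are expected counts as the authors deposited them. The T-to-C ratios are fractions as deposited, shown as percentages. Per the submitters' processing notes, fastp, Trimmomatic, kallisto and GRCm38 were used, with roles and versions not given in the sources used here.

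Inputs were tested with limma 3.58.1 (R 4.3.3, mean-variance trend) on log2(value + 1) for genes that reached 10 in no fewer than 2 libraries. Enrichment used IP and inputs in one fit after TMM scaling within each table. Igf2bp2 counts were tested with edgeR 4.0.16 (quasi-likelihood, filterByExpr, TMM), with DESeq2 1.42.0 as an alternative, and new RNA with limma on the log2 of percent plus 0.1, for genes with values above 0 in 6 or more libraries. The p-values were Benjamini-Hochberg adjusted over all genes tested in a comparison (threshold 0.05), all tests are two-sided, and the fits were tested on simulated data. Every member with a mean of at least 10 in an atlas type is named with values. Values are given by library for the highest immature member of each cluster, those past the threshold in a Mettl3 or Igf2bp2 comparison, and those past it in 3 or more of 9 steps; the genes named for the library that stood apart were chosen after their values were seen. Replicate numbers were not taken to pair the libraries. Values of some single genes are not reported here.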

Additional observations from a re-analysis of the deposited data

How the results depend on the processing

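No call among the Hox genes changed direction under any alternative run. Of 26 called differences of single genes in the atlas contrasts, 17 held in every alternative, and of the 3 in the Mettl3 inputs 0 did. Replicate numbers were not taken to pair the libraries, since not every pair of groups had a correlation of deviations over 0.1 (27 of 120 pairs in the atlas, 58 of 91 in the Mettl3 inputs with a median of 0.187, and 0.0578 in the Igf2bp2 set), and a replicate block left every count as it was, with 14 genes called among 16 types, 11 higher and 3 lower in immature types, 12 higher in LT.HSC, 4 higher and 12 lower over the steps, 3 higher in the Mettl3 average, 1 within types and 0 elsewhere. Immature against mature types gave 7 higher genes with edgeR on recovered reads and 5 lower with no filter. LT.HSC gave 21 higher with no filter, and the steps 25 lower with a pseudocount of 10. With no filter, enrichment called 1 gene among 9 types and 1 lower in LT.HSC, and a pseudocount of 10 also gave 1 lower in LT.HSC (Hoxa2). The Mettl3 average gave 1 higher gene with a pseudocount of 10 and 0 with 1 mean per genotype and replicate number, and the tests within types gave 0 with a pseudocount of 10, 0 with edgeR and 2 with no filter. New RNA gave 1 (Hoxb5) when genes above 0 in at least 1 library were kept. Leaving out 1 library at a time gave 10 to 11 genes higher in immature types, 9 to 12 higher in LT.HSC, 3 to 4 higher and 7 to 15 lower over the steps, 0 to 1 for enrichment among types, 0 to 1 lower for enrichment in LT.HSC, 2 to 3 higher and 0 to 1 lower in the Mettl3 average, and 0 to 2 higher and 0 to 1 lower within types. The cause of these changes was not tested. The median of all genes in immature against mature types was -0.16, -0.06 with TMM scaling and -0.01 with edgeR. Over all genes, the counts moved by more than 1.5 times for LT.HSC (4156 higher and 2779 lower, down to 2237 and 1396), enrichment among types (1368, from 828 to 3648), enrichment in LT.HSC (212 higher, from 77 to 949, and 1398 lower, from 339 to 2402), the Mettl3 average (1088 higher, from 1 to 1523, and 434 lower, from 0 to 1247), the Mettl3 difference between types (2, from 0 to 78), Mettl3 enrichment (0, up to 3 higher and 10 lower), new RNA (0 to 69) and Igf2bp2 (0, with 8 to 85 higher and 0 to 66 lower in other fits). Low read numbers limit 25 of the 39 genes, and all Monocyte values.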
